A study of Mus musculus with 4 samples.

Results

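Neutrophils of the mouse retina and choroid were picked cell by cell from their own transcripts. A cell was taken when it held at least 1 UMI (a uniquely tagged RNA molecule) of at least 3 of 8 genes: S100a8, S100a9, Retnlg, Csf3r, Cxcr2, Ly6g, Mmp9 and Mmp8. The rule picked 244 of 36701 cells: 159 in the aged CNV library, 43 in the young CNV library, 38 in the aged control library and 4 in the young control library. Because those 8 genes chose the cells, their levels are given as a description and support nothing that follows.

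The study sequenced single cells from wild-type mice with and without choroidal neovascularisation (CNV), the growth of new vessels from the choroid that is induced by laser burns through Bruch's membrane. The aged CNV library came from mice over 18 months old, 3 days after laser (532 nm, 200 mW, 0.15 s, 100 µm spots), and the young CNV library from mice of 6 to 8 weeks treated in the same way. The aged control library came from mice over 18 months old and the young control library from mice of 6 to 8 weeks, both without laser. Retina and choroid-sclera were dissociated with papain, rods were depleted from the retina with an antibody to the surface protein CD73, and the suspensions were mixed before droplet capture. Each group was 1 library, and the labels do not give the number of mice pooled in it. No difference between libraries could therefore be tested: every interval below covers counting error only, and age, laser and the individual library cannot be told apart. The libraries held 6676 to 11427 cells, with a median of 2593 UMIs per cell in the young control and of 6427.5 to 7223 in the other libraries. Of all cell barcodes, 124 occurred in more than 1 library, and 1 picked cell carried such a barcode.

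Neutrophils are short-lived granulocytes that are made in the bone marrow, circulate in blood and enter injured tissue along chemokine gradients sensed by receptors such as Cxcr2. They stop on activated endothelium through selectins and integrins, kill by granule enzymes and by the oxygen radicals of the phagocyte oxidase, and release chemokines and interleukin-1 that call further leukocytes. The healthy retina, behind its blood barrier, holds few of them. After laser injury they are among the first blood cells to reach the lesion.

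The picked cells were not equally pure in the 4 libraries. In the aged CNV library 106 of 159 picked cells held 4 or more of the 8 genes, against 20 of 43 in the young CNV library, 31 of 38 in the aged control library and all 4 cells of the young control library. The cells just inside the rule, with exactly 3 genes, numbered 53, 23, 7 and 0 in the aged CNV, young CNV, aged control and young control libraries, and those just outside it, with 2 genes, numbered 128, 141, 25 and 20. Young CNV cells with exactly 3 genes were deep and poor in neutrophil RNA: their median was 36514 UMIs, of which 0.0276% came from the 8 genes, and 20 of these 23 cells also held UMIs of 3 or more of 10 macrophage markers (C1qa, C1qb, C1qc, Adgre1, Mrc1, Cd163, Apoe, Trem2, Folr2 and Ms4a7). Macrophage markers also stood in 18 of the 53 aged CNV cells and 5 of the 7 aged control cells with exactly 3 genes. In cells with 4 or more genes the 8 genes made up a median of 1.22% of a cell's UMIs in aged CNV, 1.66% in young CNV, 4.96% in the aged control and 3.44% in young control. These cells are called the strict set from here on, and results are given in it, with the count in all picked cells beside each leading list.

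**Figure D1:**
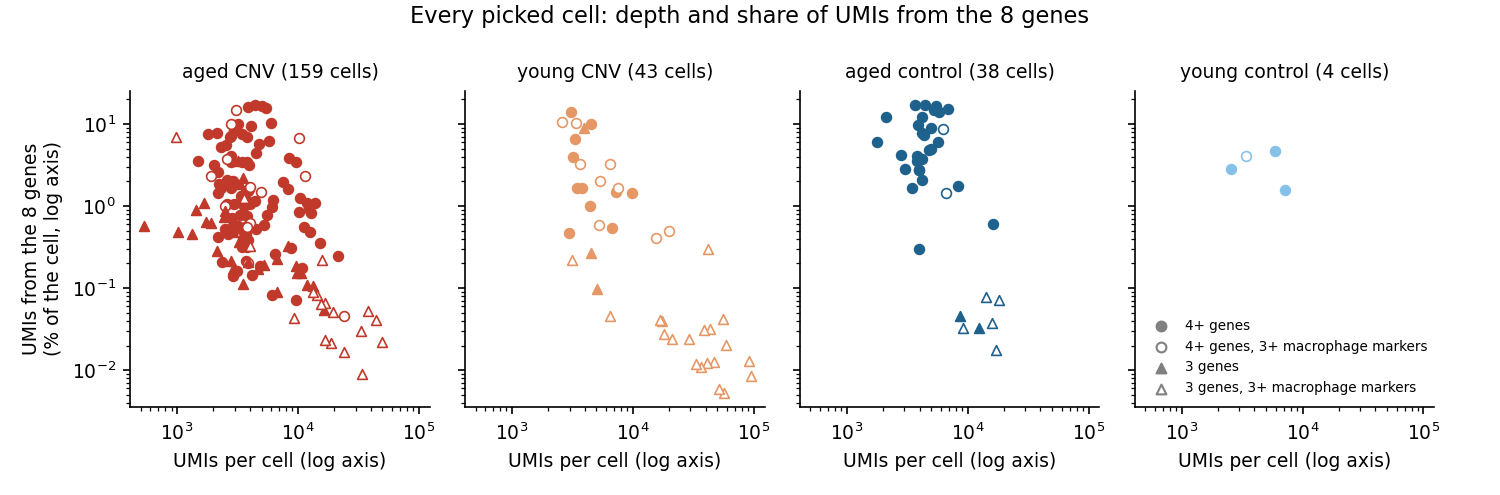
Each picked cell by its total UMIs (x axis, log scale) and the percentage of its UMIs from the 8 picking genes (y axis, log scale), with 1 panel per library. Circles are cells with 4 or more of the genes, triangles cells with 3, and open symbols cells that also held 3 or more macrophage markers; most young CNV triangles lie far to the lower right, at a median of 36514 UMIs.

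Markers of other classes remained in the strict set, unevenly. UMIs of the 10 macrophage markers, summed and scaled to 1000000 UMIs of those cells (CPM), came to 1760 in aged CNV, 9742 in young CNV, 965.9 in the aged control and 683.6 in young control, and 13, 9, 2 and 1 strict cells of those libraries held 3 or more of them. Fibroblast markers summed to 3259 CPM in aged CNV, 753.8 in young CNV, 39.7 in the aged control and 52.6 in young control. Dendritic cell markers stood at 75.4, 14230, 33.1 and 210.3 CPM in the same order, and 2 strict cells in each CNV library held 3 or more of them. Monocyte markers stood at 836.7, 942.2, 641.7 and 473.2 CPM in that order, and 6, 2, 1 and 1 strict cells held 3 or more of them. Rod markers were highest in the 4 young control cells, at 8098 CPM, against 639.1 to 879.9 CPM in the other libraries. Markers of the retinal pigment epithelium stood at 103 CPM in aged CNV, 98.3 in young CNV, 5511 in the aged control and 157.7 in young control, and 2 strict cells in aged CNV and 2 in the aged control held 3 or more of them. Müller glia markers, which share Apoe with the macrophage list, stood at 1502, 6833, 1389 and 315.5 CPM in the same order, and cone markers at 316.3, 1966, 291.1 and 262.9 CPM. The part of these other-class transcripts in the differences given below was not tested, beyond leaving out cells with 3 or more macrophage markers. Macrophage markers were also uneven in endothelial-marker cells (3 or more of 8 endothelial markers, not picked). There 113 of 628 cells in aged CNV, 495 of 1141 in young CNV, 19 of 461 in the aged control and 53 of 740 in young control held 3 or more. The part of this background in the cells left out was not tested. No picked cell held 3 or more markers of T cells, NK cells, B cells, mast cells or eosinophils. Ly6g, the surface antigen most used to sort mouse neutrophils, had 26 UMIs in aged CNV cells, 3 in aged control cells and 0 in both young libraries. The young cells thus carry the name without a UMI of their usual sorting marker. Its counts were low throughout, and strict cells held 122050 UMIs in young CNV and 19018 in young control, against 543789 in aged CNV. A lack of Ly6g in the young cells cannot be told apart from few UMIs.

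Picked cells were most frequent in the aged CNV library on both counts of cells. They made up 2.06% of all cells in aged CNV (95% exact interval 1.75 to 2.40), 0.396% in young CNV (0.287 to 0.533), 0.569% in aged control (0.403 to 0.780) and 0.0350% in young control (0.00954 to 0.0896). These are shares of picked cells, not of neutrophils alone. In young CNV 29 of the 43 held 3 or more macrophage markers, which summed to 28720 CPM against 3930 CPM for the 8 genes. The aged CNV share was 3.61 times that of aged control (2.52 to 5.29) and 5.20 times that of young CNV (3.69 to 7.46). Among cells with a UMI of Ptprc, which encodes the leukocyte antigen CD45, the shares were 10.7% in aged CNV, 2.32% in young CNV, 6.40% in the aged control and 1.02% in young control. On that scale the aged CNV share was 1.67 times that of aged control (1.16 to 2.46) but 4.62 times that of young CNV (3.23 to 6.73).

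The strict set gave the same order of libraries. It held 1.37% of all cells in aged CNV, 0.184% in young CNV, 0.464% in the aged control and 0.0350% in young control, so that aged CNV stood 2.95 times above aged control (1.96 to 4.56) and 7.45 times above young CNV (4.59 to 12.7). Of Ptprc cells, the strict aged CNV share was 1.42 times that of aged control, with an interval that includes equal shares (0.937 to 2.2), and 6.37 times that of young CNV (3.91 to 10.9). Aged control held more picked cells than young control did, 38 of 6676 cells against 4 of 11427. The ratio of these shares was 16.3 (5.86 to 62.7), and 4.49 (2.77 to 7.52) with 2 genes required. The young control library was also shallower, at a median of 2593 UMIs per cell against 6427.5, and the part of depth in this ratio was not tested. Shares of captured cells depend on what else was captured, and the number of neutrophils in the tissue cannot be told apart from their recovery.

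**Figure D2:**
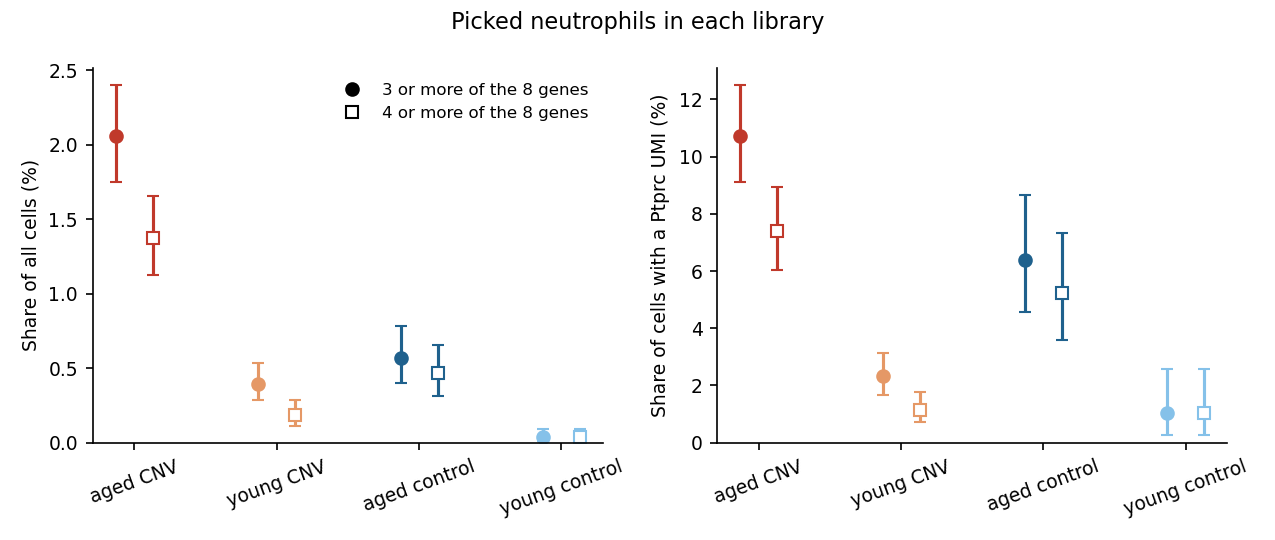
Share of all cells (left) and of cells with a Ptprc UMI (right) that were picked, in percent, for the 4 libraries; bars are 95% exact binomial intervals, filled circles the rule of 3 genes and open squares cells with 4 or more. Aged CNV stands at 2.06% of all cells and aged control at 0.569%, but on the Ptprc scale they are 10.7% and 6.40%.

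Genes outside the rule that stood highest over other cells are described here without a test, since the same cells were chosen by their RNA. The 15 genes most raised in picked cells over all other cells of the same library, ranked by the lowest of 3 library ratios, were Stfa2l1, Trem3, Dhrs9, Acod1, Trem1, Il1r2, Mirt1, H2-Q10, Clec4e, Il1b, Il1bos, Cd101, Tarm1, Clec4d and Slpi. Il1r2, the decoy receptor that captures interleukin-1 without signalling, stood at 1119 CPM in aged CNV, 255.1 in young CNV, 2021 in the aged control and 4838 in young control, which is 65.6, 32.5 and 787 times its level in other cells of the first 3 libraries. Trem1 and Trem3 are activating receptors of myeloid cells, Clec4d and Clec4e sense fungal and mycobacterial glycolipids, and Slpi inhibits neutrophil elastase. Il1bos lies antisense to Il1b and strand use in counting is not stated, so its reads cannot be told apart from those of Il1b. Some proteins packed into primary and secondary granules during bone marrow development were near 0: Mpo, Elane and Fcnb had 1 UMI each in aged CNV and 0 in the other libraries, Ctsg had 0 in all 4, Camp had 10 in aged CNV, 1 in young CNV and 0 in either control, and Ngp had 6 in aged CNV, 1 in the aged control and 0 in either young library. Lcn2, also a secondary granule protein, was higher, with 262 UMIs in aged CNV, 23 in young CNV, 115 in the aged control and 4 in young control. As counted, 31 of 106 strict aged CNV cells held UMIs of 2 or more secondary granule genes. So did 2 of 20 in young CNV, 8 of 31 in the aged control and 0 of 4 in young control. The whole granule list stood at 2473, 6620, 4036 and 1788 CPM in strict cells of aged CNV, young CNV, aged control and young control.

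Interferon-stimulated genes, which cells switch on through the receptor for type I interferons, had the highest median of the lists in strict aged CNV neutrophils over those of the aged control. Of 25 listed genes, 22 had the 20 UMIs over both libraries needed for a ratio, and 17 of them were at least 2-fold higher in aged CNV and 0 at least 2-fold lower; over all 5991 genes measured, 32.9% were as much higher and 9.06% as much lower. The list's median log2 ratio was 2.24, beside 0.42 over all genes, with genes at 0 UMIs in a library counted against 3 UMIs. Without the cells that held 3 or more macrophage markers, 18 of 21 were higher and 0 lower, with a median of 2.02, where 33.7% of 5522 genes were higher and 9.67% lower. In all picked cells, deep macrophage-marker cells included, 10 of 23 were higher and 0 lower, against 29.0% and 8.61% of 8509 genes; the list's median there was 0.79, below those of the tissue-adapted genes (2.21) and the chemokine ligands (2.14).

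Rsad2, whose product viperin makes an antiviral nucleotide, had 208 UMIs in aged CNV strict cells, 9 in young CNV, 2 in the aged control and 7 in young control, or 382.5, 73.7, 13.2 and 368.1 CPM. Its ratio of aged CNV to aged control was 4.85 on the log2 scale (2.98 to 7.91). Isg15, a ubiquitin-like protein that is joined to other proteins during antiviral defence, had 395.4 CPM in aged CNV, 303.2 in young CNV, 26.5 in the aged control and 788.7 in young control, a log2 ratio of 3.90 over aged control (2.52 to 5.79). Both were lowest in aged control. The 4 young control cells were near aged CNV for Rsad2, with all 7 UMIs in 1 cell, and above it for Isg15. Ifit3, which binds viral RNA caps together with Ifit1, stood at 288.7 CPM in aged CNV, 57.4 in young CNV, 19.9 in the aged control and 0 in young control, and Ifit1 at 143.4, 65.5, 0 and 52.6 CPM. Ifit3 was higher in aged CNV by 3.86 over aged control on the log2 scale (2.29 to 6.16). Ifit1, with 78 UMIs against 0, was higher by 2.85 with 3 counts put in for the 0. Slfn5, a Schlafen protein that restrains viral transcription, had 413.8 CPM in aged CNV, 270.4 in young CNV, 6.62 in the aged control and 0 in young control (5.97 over aged control, 3.47 to 11.3). The Slfn5 ratio rests on 1 UMI in aged control: in all picked cells that library had 46 and the ratio was 0.83, and endothelial-marker cells stood at 397.3 CPM in aged CNV, 444.4 in young CNV, 478.7 in the aged control and 547.7 in young control.

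Some promoters of the listed interferon genes hold letters by which interferon-activated factors are known to find their targets. RefSeq promoters (GRCm38.p6, from 250 bases before to 50 bases after the start) were searched on both strands for GAAA followed, after any 2 bases, by a second GAAA, the core of the interferon-stimulated response element. It occurred in 10 of the 19 interferon genes with a promoter in the table, and in 3.44% of all 32851 promoters. The first count is by gene, with a match in any of its promoters (20 promoters in all), and the second by promoter, over 27025 genes. The 4 shown, all with a match, are those of Rsad2, Isg15, Ifit1 and Ifit3, 4 of the genes just described, read along the gene's own strand, with the matches in capitals; the 3 matches in Isg15 overlap one another and form 1 run.
Rsad2, chr12:26456403-26456702, minus strand: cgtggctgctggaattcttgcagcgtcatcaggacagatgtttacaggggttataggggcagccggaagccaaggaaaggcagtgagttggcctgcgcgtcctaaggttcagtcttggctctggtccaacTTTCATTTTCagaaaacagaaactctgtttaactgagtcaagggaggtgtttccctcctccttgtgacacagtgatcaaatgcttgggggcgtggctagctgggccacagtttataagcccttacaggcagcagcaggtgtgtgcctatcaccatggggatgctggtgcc
Isg15, chr4:156200769-156201068, minus strand: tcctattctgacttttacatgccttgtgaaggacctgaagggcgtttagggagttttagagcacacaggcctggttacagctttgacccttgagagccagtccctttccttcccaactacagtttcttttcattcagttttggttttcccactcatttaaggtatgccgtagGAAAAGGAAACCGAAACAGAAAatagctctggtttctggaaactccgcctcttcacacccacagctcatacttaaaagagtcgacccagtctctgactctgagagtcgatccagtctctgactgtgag
Ifit1, chr19:34640639-34640938, plus strand: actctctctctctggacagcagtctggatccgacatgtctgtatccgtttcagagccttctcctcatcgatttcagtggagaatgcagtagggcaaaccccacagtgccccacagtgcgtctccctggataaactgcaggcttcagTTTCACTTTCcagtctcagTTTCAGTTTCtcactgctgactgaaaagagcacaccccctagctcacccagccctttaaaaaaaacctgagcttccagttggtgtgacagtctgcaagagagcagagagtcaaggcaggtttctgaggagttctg
Ifit3, chr19:34583279-34583578, plus strand: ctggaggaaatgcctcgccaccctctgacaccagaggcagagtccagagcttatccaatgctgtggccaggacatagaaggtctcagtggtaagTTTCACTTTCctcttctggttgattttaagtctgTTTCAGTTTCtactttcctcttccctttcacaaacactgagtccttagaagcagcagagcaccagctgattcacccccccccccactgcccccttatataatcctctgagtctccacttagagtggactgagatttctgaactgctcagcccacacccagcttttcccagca
All the matches lie upstream of the start, from 156 bases before it in Ifit3 to 66 in Isg15. A match is a description of the letters and was not tested as a binding site.

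The interferon genes were unevenly spread over the cells. In strict aged CNV cells the listed genes made up a median of 0.167% of a cell's UMIs, an upper quartile of 0.735% and a maximum of 4.0%. The medians were 0.164% in young CNV, 0.0982% in the aged control and 0.603% in young control, and the maxima 0.825%, 0.544% and 0.754%. The medians of the lasered libraries were near each other and their upper tails apart. More than 1% of UMIs, a limit chosen after the values were seen, came from these genes in 22 of 106 aged CNV cells (20.8%, 13.5 to 29.7), in 0 of 20 young CNV cells (upper bound 16.8%), in 0 of 31 aged control cells (upper bound 11.2%) and in 0 of 4 young control cells. The 5 highest cells held 23.3% of the list's UMIs in aged CNV, 73.4% in young CNV and 45.1% in aged control. Thinned to 500 UMIs, 36.8% of strict aged CNV cells, 35% of young CNV cells and 22.6% of aged control cells kept UMIs of 2 or more listed genes, with intervals that overlap (27.6 to 46.7, 15.4 to 59.2 and 9.59 to 41.1).

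Endothelial-marker cells of the same eyes, a class that can express these genes itself, were also higher after laser for some of them. In endothelial-marker cells Isg15 stood at 156.7 CPM in aged CNV, 287.8 in young CNV, 46.5 in the aged control and 162.7 in young control, and Ifit3 at 181.6, 119.2, 26.4 and 41.0 CPM. Rsad2 had a UMI in 30.2% of picked aged CNV cells and 41.1% of endothelial-marker cells of that library, and in 8.81% and 8.60% after thinning (median depths 3774 and 7013.5 UMIs). Slfn4, a Schlafen gene of myeloid cells, had 766.8 CPM in strict aged CNV cells, 221.2 in young CNV, 271.2 in the aged control and 999.1 in young control, against 0.212 to 2.74 CPM in endothelial-marker cells. Slfn4 was higher in aged CNV than in aged control by 1.5 on the log2 scale (1.03 to 2.0) and than in young CNV by 1.79 (1.23 to 2.41). The part of free RNA in these values was not tested.

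**Figure D3:**
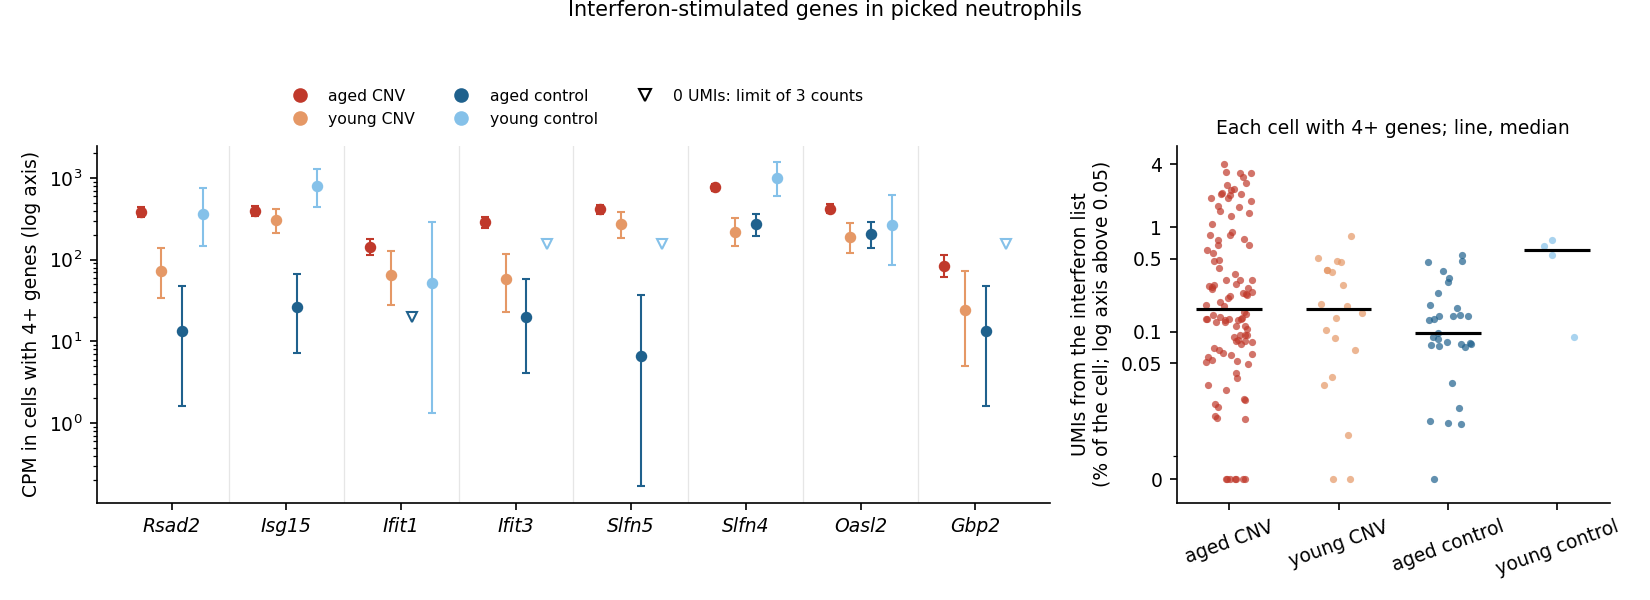
Left, CPM (log axis) of 8 interferon-stimulated genes in strict cells of the 4 libraries with 95% exact Poisson intervals; triangles mark 0 UMIs, drawn at the limit that 3 counts allow. Right, percentage of each strict cell's UMIs from the interferon list (log axis above 0.05) with the median as a line; cells above 1% occur in aged CNV, 22 of 106, and in no other library.

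Against young CNV the interferon genes were also higher in aged CNV, by less. Of the 22 measured, 10 were at least 2-fold higher and 0 lower in the strict set, where 26.3% of all 5987 genes were as much higher and 7.78% as much lower; the list's median was 0.87, beside 0.33 over all genes. Rsad2 and Ifit3 led, at 2.37 (1.42 to 3.52) and 2.33 (1.25 to 3.67) on the log2 scale, whereas the interval of Isg15 included 0 (0.38, -0.13 to 0.93). Without macrophage-marker cells 13 of 21 were higher and 0 lower, median 1.32, where 20.7% of 5188 genes were higher and 9.54% lower (median 0.10), and Isg15 alone moved to 2.51 (1.13 to 4.40), resting on 4 UMIs in 11 young CNV cells. In all picked cells 8 of 23 were higher and 1 lower, where 27.6% and 6.74% of 9808 genes were.

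Several chemokine ligands were higher in the summed UMIs of lasered than of unlasered aged neutrophils, Cxcl2 among them. Of 16 listed ligands 7 could be measured in the strict set of aged CNV and aged control, and 4 were at least 2-fold higher and 1 lower, median 1.56, where 32.9% of all genes were higher and 9.06% lower. Cxcl2, the ligand of Cxcr2 that neutrophils release to draw in more neutrophils, had 4162 CPM in aged CNV, 5981 in young CNV, 1416 in the aged control and 6415 in young control, a log2 ratio of 1.56 over aged control (1.35 to 1.76). Cxcl3, another Cxcr2 ligand, had 66 UMIs in 11 aged CNV cells, 1 in young CNV and 0 in either control. It was 2.61 above aged control with 3 counts put in for the 0. Ccl3, a chemokine of the CC family that attracts leukocytes, had 513.1 CPM in aged CNV, 2032 in young CNV, 105.9 in the aged control and 210.3 in young control. Ccl3 was 2.28 above aged control (1.55 to 3.10) and Ccl4, its neighbour and close relative, 0.91 (0.48 to 1.37). The one lower ligand was Ccl6, at 605 CPM in aged CNV, 598.1 in young CNV, 1905 in the aged control and 210.3 in young control. Without macrophage-marker cells 3 of 5 measured ligands were higher and 1 lower, against 33.7% and 9.67% over all genes, and in all picked cells 7 of 10 were higher and 1 lower, against 29.0% and 8.61%. The typical cell differed little: the listed ligands made up a median of 0.357% of a cell's UMIs in strict aged CNV and 0.284% in strict aged control. Without macrophage-marker cells these medians were 0.295% and 0.32%. The upper tails were apart, with more than 1% of UMIs in 31 of 106 strict aged CNV cells and 2 of 31 aged control cells.

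Between aged CNV and young CNV the direction of the chemokine ligands depended on which cells were counted. In the strict set 1 of 7 measured ligands was at least 2-fold higher in aged CNV and 4 were lower, median -1.48, where 26.3% of all genes were higher and 7.78% lower: Ccl3 at -1.99 (-2.24 to -1.73), Ccl4 at -1.48 (-1.73 to -1.22), Ccl9 and Ccl2. In all picked cells 5 of 12 were higher and 2 lower, median 0.81, against 27.6% and 6.74% over all genes. Without macrophage-marker cells 1 of 5 was higher and 1 lower in the strict set, median -0.52, against 20.7% and 9.54%. The strict values rest on few cells. Of 211 Ccl4 UMIs in young CNV, 64.0% came from 1 cell, and of 248 Ccl3 UMIs 32.7%; Ccl2 and Ccl9 had 24 and 21 UMIs. In all picked cells the direction was the other way for Ccl3 (0.78) and Ccl4 (0.64), and without macrophage-marker cells Ccl3 stayed lower in aged CNV (-2.45, -2.76 to -2.14) while Ccl4 was -0.52 (-0.96 to -0.05). Cxcl3 went against the list at 3.89 (1.36 to 9.21), with 66 UMIs in aged CNV against 1 in young CNV.

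The Cxcl2 and Cxcl3 promoters share a further set of letters. GGGA followed, after any 2 bases, by TTCC, a kappa B motif bound by NF-kB factors, searched on both strands, was found in 4 of 10 chemokine ligands with a promoter in the table and in 1.47% of all promoters. The 10 ligands had 10 promoters. In both genes the same 11 letters hold a match on each strand, and these matches overlap with an offset of 1 base; the run is shown in capitals to compare the pair, which lie close together on chromosome 5.
Cxcl2, chr5:90903649-90903948, plus strand: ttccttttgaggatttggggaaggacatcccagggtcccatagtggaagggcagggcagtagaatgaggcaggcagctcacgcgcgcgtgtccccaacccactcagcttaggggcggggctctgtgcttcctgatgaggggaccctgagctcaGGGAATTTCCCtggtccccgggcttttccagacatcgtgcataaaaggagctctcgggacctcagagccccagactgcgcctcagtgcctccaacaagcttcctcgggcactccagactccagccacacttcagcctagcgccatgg
Cxcl3, chr5:90785851-90786150, plus strand: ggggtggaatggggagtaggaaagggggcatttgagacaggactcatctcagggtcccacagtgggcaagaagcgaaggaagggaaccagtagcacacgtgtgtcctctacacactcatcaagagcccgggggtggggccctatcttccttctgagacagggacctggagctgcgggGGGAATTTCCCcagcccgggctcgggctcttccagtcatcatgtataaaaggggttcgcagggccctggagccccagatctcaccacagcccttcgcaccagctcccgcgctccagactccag
The run starts 97 bases before the start of Cxcl2 and 73 before that of Cxcl3. The Ccl3 promoter held none in this window.

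Among cytokines, interleukin-1 alpha and beta went opposite ways. Il1b, the most abundant cytokine transcript here, had 4331 CPM in strict aged CNV cells, 4400 in young CNV, 8250 in the aged control and 12410 in young control; it was lower in aged CNV than in aged control by a log2 ratio of -0.93 (-1.03 to -0.83) and like young CNV within counting error (-0.02, -0.16 to 0.12). Il1a had 58 UMIs in aged CNV, 13 in young CNV, 1 in the aged control and 0 in young control, a log2 ratio of 4.01 over aged control (1.48 to 9.34). Tnf stood at 360.4 CPM in aged CNV, 532.6 in young CNV, 92.6 in the aged control and 473.2 in young control (1.96 over aged control, 1.18 to 2.86). Il1rn, the natural antagonist of interleukin-1, was 2.01 above aged control (1.13 to 3.04), and Il1rap, the shared chain of its signalling receptor, -1.61 (-1.87 to -1.35). Over the list, 5 of 11 measured genes (45.5%) were at least 2-fold higher and 3 (27.3%) lower in aged CNV than in aged control. Over all genes 32.9% were as much higher and 9.06% as much lower. Of 19 NF-kB target genes 5 were higher and 0 lower, close to the share over all genes; the adhesion ligand Icam1 led with 178.4 CPM in aged CNV, 417.9 in young CNV, 26.5 in the aged control and 0 in young control.

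**Figure D4:**
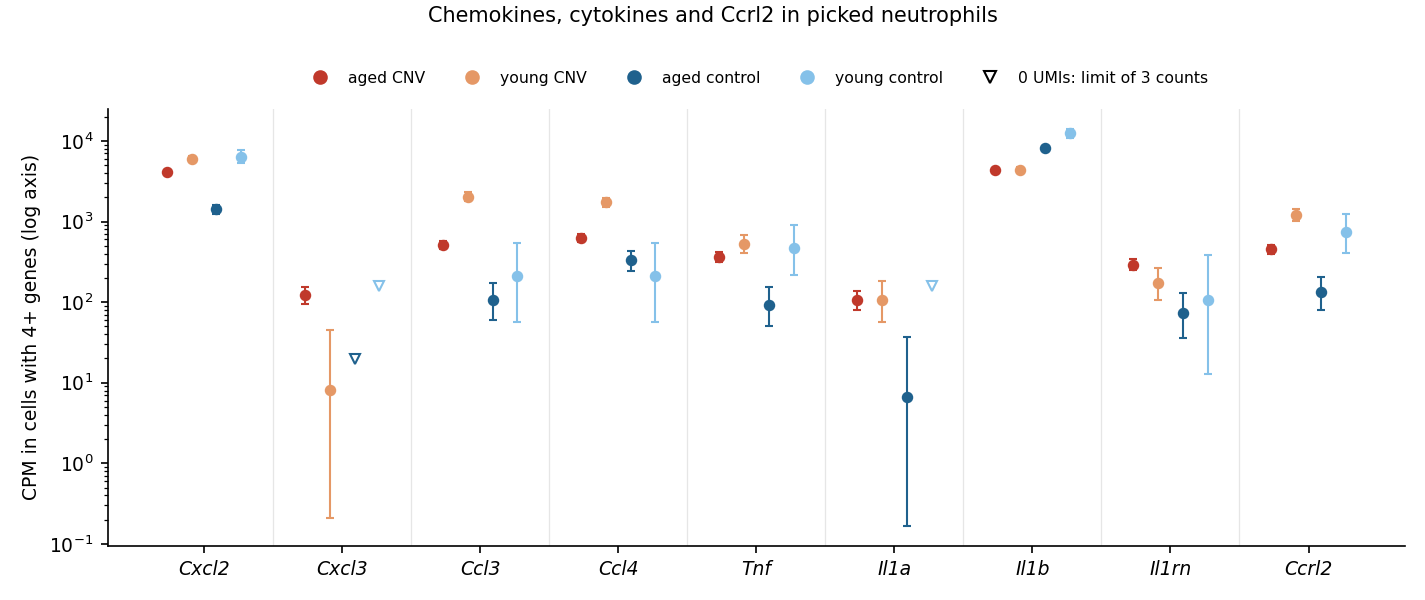
CPM (log axis) of chemokines, cytokines and the chemokine-binding receptor Ccrl2 in strict cells of the 4 libraries, with 95% exact Poisson intervals; triangles mark 0 UMIs at the limit that 3 counts allow. Cxcl2, Ccl3 and Tnf are lowest in aged control, and Il1b is higher in both controls than in both CNV libraries.

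Genes that neutrophils are known to gain once they live in tissue or tumours were mostly higher in lasered aged cells. Of 19 measured, 13 were at least 2-fold higher and 0 lower than in aged control (median 1.39), beside 32.9% higher, 9.06% lower and a median of 0.42 over all genes. Without macrophage-marker cells 12 of 18 were higher and 0 lower, median 1.40, against 33.7% and 9.67% over all genes. Over all picked cells 16 of 19 were higher and 0 lower, against 29.0% and 8.61%. Many of these genes also belong to macrophages, and macrophage markers summed to 1760 CPM in aged CNV and 965.9 CPM in aged control. Cd63, a tetraspanin of granule and lysosome membranes, had 829.4 CPM in aged CNV, 1196 in young CNV, 119.1 in the aged control and 210.3 in young control. Cd63 was 2.80 above aged control (2.12 to 3.57) and 2.50 without macrophage-marker cells (1.82 to 3.27). Cstb, an inhibitor of cathepsins, was 3.3 higher than in aged control (2.05 to 4.94), against 5 UMIs there.

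Hilpda, a lipid droplet protein that hypoxia induces, had 83 UMIs in 21 aged CNV strict cells, 1 UMI in young CNV and 0 in either control. It was 2.94 above aged control with 3 counts put in for the 0. Hmox1, the haem-degrading enzyme, stood at 185.7 CPM in aged CNV, 98.3 in young CNV, 26.5 in the aged control and 315.5 in young control. Fth1, the ferritin heavy chain, was the most abundant of the list, with 11250 CPM in aged CNV, 14570 in young CNV, 4194 in the aged control and 15980 in young control (1.42 over aged control, 1.31 to 1.54). As with the interferon genes, the aged control library was the low one for most of them. Siglecf, a sialic acid receptor that marks eosinophils and tissue-resident neutrophils, was lower in aged CNV than in young CNV: 18 UMIs in 13 of 106 cells against 26 UMIs in 11 of 20 cells, beside 2 UMIs in the aged control and 0 in young control. Its log2 ratio was -2.69 (-3.64 to -1.76), and -2.43 (-3.59 to -1.20) without macrophage-marker cells, while of the other eosinophil markers Ear2 alone had a UMI in strict cells. Ftl1 and the processed copy Ftl1-ps1 share sequence, and their split is uncertain.

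Some genes of circulating neutrophils were lower after laser in the aged eye, and others lay within 2-fold. Of 23 measured neutrophil genes outside the rule, 9 were at least 2-fold lower and 2 higher in aged CNV than in aged control (median -0.88, all genes 0.42), and 6 of 15 adhesion genes were lower and 4 higher, where 9.06% of all genes were lower and 32.9% higher. In all picked cells 12 of 24 neutrophil genes were lower and 3 higher, against 8.61% and 29.0%. Jaml, an adhesion protein for crossing epithelia and endothelia, had 68.0 CPM in aged CNV, 90.1 in young CNV, 482.9 in the aged control and 736.1 in young control, a log2 ratio of -2.83 (-3.44 to -2.24). Itgal, the alpha chain of the integrin LFA-1, stood at 114, 131.1, 443.2 and 262.9 CPM in the same order (-1.96, -2.48 to -1.44 over aged control). Both stood lower in the lasered library of either age, but the young control values rest on 4 cells with 19018 UMIs. Itga4 was -1.75 (-2.23 to -1.28), and Wfdc21, a small secreted whey acidic protein, -2.05 (-2.47 to -1.63). Icam1 and Itgax were the opposite, at 2.75 (1.35 to 4.66) and 2.68 (0.05 to 8.04).

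Of 18 transcription factors 6 were at least 2-fold lower and 2 higher, beside the same 9.06% and 32.9% over all genes; without macrophage-marker cells 6 were lower and 4 higher, against 9.67% and 33.7%. Mxd1, a Max partner of mature granulocytes, was -1.17 (-1.39 to -0.96), and Fosb, Nr4a1, Klf6, Spi1 and Fos were also lower by more than 2-fold, whereas Jun (1.58, 1.14 to 2.05) and Bhlhe40 (3.18, 1.26 to 6.25, against 2 UMIs) were higher. The 8 picking genes were also a smaller part of strict cells in aged CNV, at 24570 CPM, than in aged control, at 67020 CPM, while young CNV had 25040 CPM and young control 31230 CPM. The part of this difference in the counts of neutrophil genes was not tested.

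Between the lasered libraries, the part of neutrophil genes higher in aged than in young cells was not far from that over all genes. In aged CNV 8 of 22 measured (36.4%) were at least 2-fold higher and 1 lower than in young CNV (median 0.63, all genes 0.33), where 26.3% of all genes were higher and 7.78% lower. Without macrophage-marker cells 6 (27.3%) were higher and 1 lower, against 20.7% and 9.54%. G0s2, an inhibitor of the lipase that breaks down triglycerides, had 1304 CPM in 51 of 106 aged CNV cells, 131.1 CPM in 4 of 20 young CNV cells, 774 CPM in the aged control and 2051 CPM in young control, the last from 1 cell. G0s2 was 3.31 higher in aged than in young CNV (2.60 to 4.13). Acod1, which makes the antimicrobial metabolite itaconate, had 1004 CPM in aged CNV, 188.4 in young CNV, 774 in the aged control and 157.7 in young control (2.41, 1.81 to 3.08). Aged cells of both conditions were thus above young CNV for both genes. Chil3, a chitinase-like protein of young granulocytes and macrophages, had 126 UMIs in 13 aged CNV cells and 1 UMI in young CNV. Lrg1 was 2.22 higher (1.35 to 3.24), and Nedd9, an adaptor of integrin signalling, 2.79 (1.72 to 4.12). Without macrophage-marker cells Acod1, G0s2 and Lrg1 were 2.99, 4.62 and 2.58 above young CNV, with 3 to 7 UMIs of each left in 11 young CNV cells.

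Receptors and effector systems are counted here beside the 32.9% of genes higher and 9.06% lower over all genes. Of 9 chemoattractant receptors 1 was at least 2-fold higher in aged CNV than in aged control, Ccrl2, which presents the chemoattractant chemerin (452.4 CPM in aged CNV, 1213 in young CNV, 132.3 in the aged control and 736.1 in young control), and 1 lower, Cx3cr1. The complement receptor C5ar1 (-0.69, -1.0 to -0.36) and the retention receptor Cxcr4 (-0.81, -1.28 to -0.32) lay within 2-fold. Of 16 cytokine receptors 1 was higher and 4 lower, the higher one being Tgfbr1 (2.23, 1.21 to 3.47). Of 7 measured granule protein genes 1 was higher and 3 (42.9%) lower, and of 4 measured cell cycle genes 2 were higher and 1 lower. Of 7 phagocyte oxidase genes 0 were higher and 1 lower, and of 18 pattern and Fc receptors 2 were higher and 3 lower. Among survival genes 5 of 13 (38.5%) were higher, near the share over all genes, and 0 lower, with Bax at 2.52 (0.91 to 4.84) and the Bcl-2 relative Bcl2l1 at 1.57 (0.58 to 2.74); the 3 Bcl2a1 copies share sequence and their split is uncertain.

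Glycolysis and hypoxia genes were higher in aged CNV in 9 of 26 and lower in 1, near the share over all genes. Angiogenesis and matrix genes, of interest in a vessel-forming lesion, were higher in 4 of 12 and lower in 3. Vegfa did not part the libraries, with 43 UMIs in aged CNV, 9 in young CNV, 8 in the aged control and 0 in young control (0.58, -0.53 to 1.88). Thbs1, an inhibitor of vessel growth, was 3.02 above aged control (2.16 to 4.04), but 54.5% of its 321 aged CNV UMIs came from 1 cell of 24197 UMIs, and without macrophage-marker cells it was 1.52 (0.62 to 2.56). Spp1 was 4.87 (3.00 to 7.92), with 53.8% of UMIs from 1 cell. Of 12 measured genes through which neutrophils are known to speak to NK cells, 5 (41.7%) were higher and 1 (8.33%) lower, not far from the shares over all genes (32.9% and 9.06%); the lower one was Il15, a survival factor of NK cells, at 77.2 CPM in aged CNV, 73.7 in young CNV, 396.9 in the aged control and 420.7 in young control (-2.36, -2.97 to -1.77).

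Against young CNV, counts of the other lists stand beside 26.3% of genes higher and 7.78% lower over all genes. Survival genes were at least 2-fold lower in 4 of 14 and higher in 0, and the genes known to act on NK cells lower in 5 of 13 and higher in 0, among them Ccl3, Ccl4 and Icam1. Tissue-adapted genes were lower in 4 of 19 and higher in 1, NF-kB targets lower in 3 of 19 and higher in 1, and transcription factors lower in 4 of 18 and higher in 1. Glycolysis and hypoxia genes were higher in 8 of 26 and angiogenesis genes in 4 of 12, with 0 lower in either. Cytokines had 1 of 12 higher and 1 lower, chemoattractant receptors 2 of 10 and 3, pattern and Fc receptors 2 of 18 and 1, adhesion genes 3 of 14 and 1, oxidase genes 0 of 7 and 1, granule proteins 3 of 7 and 2, cytokine receptors 1 of 16 and 2, and cell cycle genes 1 of 4 and 0. Without macrophage-marker cells, 2 of 10 survival genes were higher and 2 lower, and 1 of 11 NK partner genes higher and 2 lower, against 20.7% and 9.54% over all genes.

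**Figure D5:**
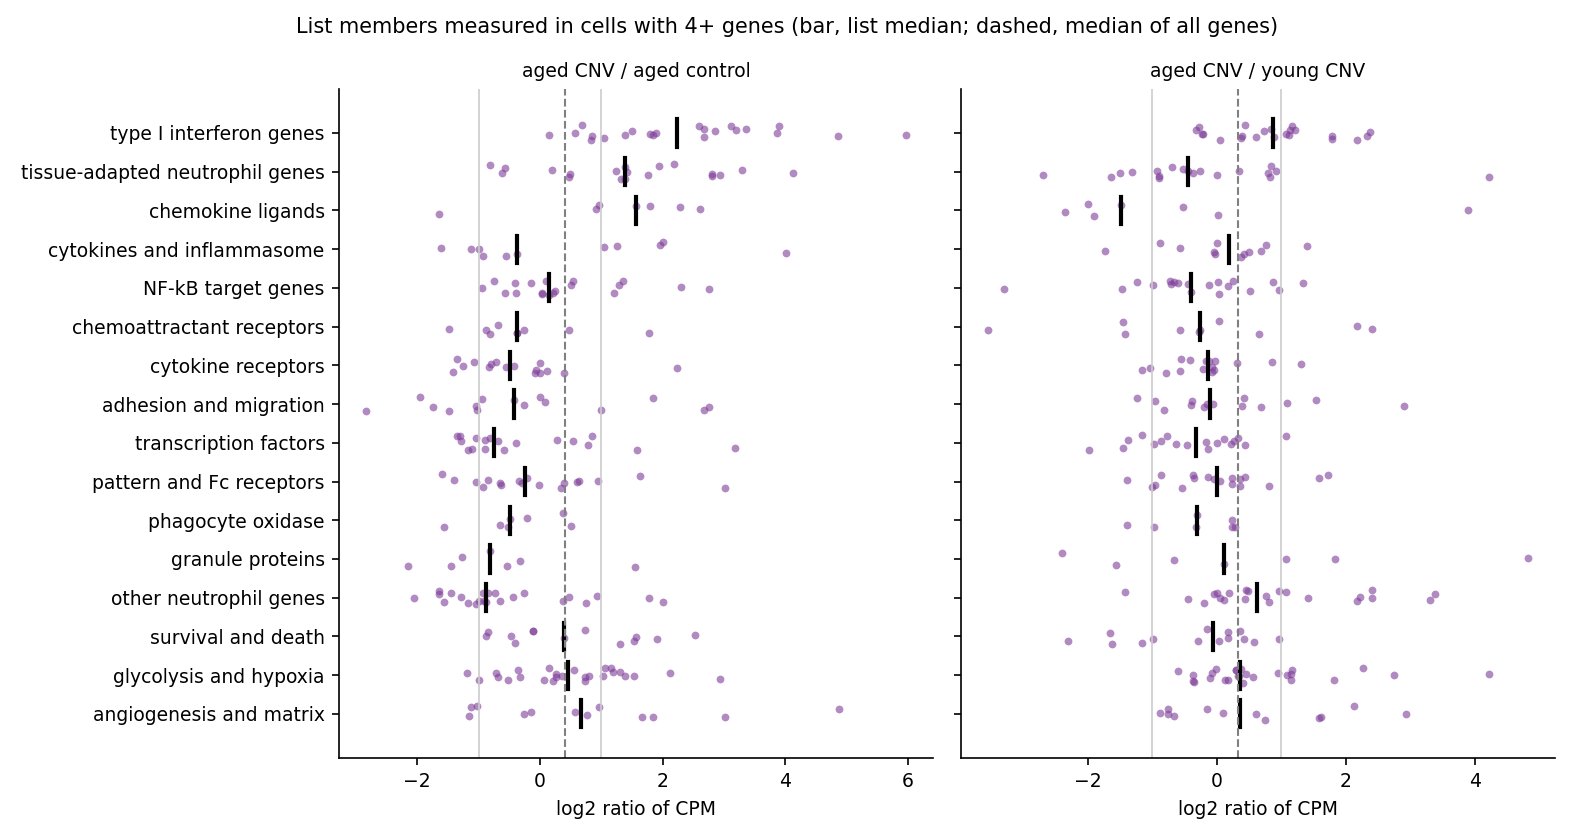
Log2 ratio of CPM for each measured member of 16 gene lists in strict cells, aged CNV over aged control (left) and aged CNV over young CNV (right); bars are list medians, the dashed line is the median of all genes (0.42 and 0.33) and grey lines mark 2-fold. Both panels share the aged CNV cells. The interferon list lies farthest to the right on the left panel, median 2.24, and chemokine ligands farthest to the left on the right panel, median -1.48.

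Some of the largest differences rested on few cells. Ghr, the growth hormone receptor, had 398 UMIs in aged CNV strict cells and 0 in the other libraries, but 67.3% of them stood in 1 cell of 15132 UMIs, and 88.4% of Hmcn1 UMIs in 1 cell of 24197 UMIs; fibroblast markers were also highest in aged CNV, at 3259 CPM. Cd74 and H2-Aa, which serve antigen presentation on MHC class II, were lower in aged CNV than in young CNV by -7.33 and -7.73, where 57.1% of the 648 Cd74 UMIs in young CNV came from 1 cell. In all picked cells, the macrophage genes Spp1, Pf4 and Gpnmb led aged CNV over aged control (10.2, 7.26 and 5.33), and the keratinocyte genes Krt13 and Krt6b were among the lowest in aged CNV over young CNV (-10.0 and -7.40), with 1 and 2 UMIs in aged CNV. Strict cells held 12 UMIs of Pf4 in aged CNV and 3 of Krt13 in young CNV. Cstdc5, Stfa1 and Stfa2, members of the cystatin A cluster with near-identical copies, had 7, 24 and 8 UMIs in aged CNV against 70, 87 and 35 in aged control; 6, 7 and 5 of the 31 aged control cells held them, and reads of the copies may be split.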

How the data were processed

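Retina and choroid cells of 4 groups, 1 library each, were read from the 1 table of UMI counts that the authors deposited (24783 genes in 36701 columns); each column was assigned to its library by its prefix, y read as young and e as the aged groups. Cell Ranger, Seurat 4.1.1 and the build mm10 are named in the submitters' processing notes. Not given in the sources used here are the version of Cell Ranger, the gene annotation and the strand of counting. The deposited cells had at least 500 UMIs, 201 genes and at most 20.0% mitochondrial UMIs, so a filter had been applied.

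All columns were used and no doublets were removed; leaving out cells with a Scrublet score over 0.2 was an alternative. UMIs were summed over the picked cells of a library and divided by their total (1081068 in aged CNV, 940774 in young CNV, 246459 in the aged control and 19018 in young control; strict set 543789, 122050, 151157 and 19018), and are given as UMIs per 1000000 (CPM). Intervals are exact at 95% (Clopper-Pearson for shares, Poisson for CPM, conditional binomial for ratios) and cover counting error only; with 1 library per group there was no test. A ratio needed 20 UMIs over both libraries, was called at 2-fold, and used a floor of 3 counts per library where 1 library had 0. Endothelial, macrophage and monocyte cells were those with 3 or more markers and not picked. The picked cells, markers and 19 gene lists were chosen with earlier results of these data known.

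Named genes were the 12 with the largest ratio by the interval bound nearest 0 per comparison and side (UMIs in at least 5 cells, at least 2 times the CPM of other cells, without mitochondrial, ribosomal, haemoglobin, immunoglobulin, sex-linked or unnamed genes), up to 4 members per list by size of ratio, and the 15 genes most raised over other cells; further members named for their role were chosen after their values were seen. Some genes that the rule names are not reported here. The ratio and interval code was tested on simulated counts. Alternatives changed the number of genes required, the genes used, the doubtful cells, the scaling, the minimum, the depth and the weight of cells. Python 3.11.15 with numpy 2.4.6, scipy 1.17.1, pandas 2.3.3, scanpy 1.11.5 and matplotlib 3.10.9, and R 4.3.3 with edgeR 4.0.16 (TMM factors only) were used.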

Additional observations from a re-analysis of the deposited data

How the results depend on the processing

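No paired analysis was possible because each group is 1 library; for the same reason no replicate could be left out. The picked share of aged CNV over young CNV, 5.20, was 2.19 with 2 genes required, 2.10 with 2 of the 6 genes other than S100a8 and S100a9, 12.9 without macrophage-marker cells, 8.74 without cells with 1% or more of UMIs from another class and 11.9 in strict cells with fewer than 3 macrophage markers (the last 2 chosen after seeing the data); over aged control it stayed within 1.5 times under the alternatives run. Leaving out macrophage-marker cells kept 128 of 159 picked cells in aged CNV and 14 of 43 in young CNV. The part of free macrophage RNA in this was not tested. In all picked cells, scaling by TMM shifted all ratios by -0.22 (aged control) and -0.43 (young CNV) on the log2 scale, and median-of-ratios scaling by -0.17 and -0.45. Of 8509 genes measured in all picked cells, 2468 were at least 2-fold higher and 733 lower than in aged control. With TMM these were 1980 and 1082, and with median-of-ratios 2088 and 976. Of 9808 genes, 2704 were higher and 661 lower than in young CNV, against 1593 and 1366 with TMM and 1569 and 1415 with median-of-ratios. No rescaled counts are given for the strict set.

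With no minimum, 2087 of 13192 genes were lower than in aged control, and 4331 of 13732 higher and 1132 lower than in young CNV. Thinned to 500 UMIs, 192 were higher and 157 lower than in aged control, of 998 genes, and 216 and 112 than in young CNV, of 984. Against young CNV, 1573 of 5987 genes were higher in strict cells, 1274 of 6350 without macrophage-marker cells and 1456 of 7579 without cells of another class. With both limits, 4 genes and fewer than 3 macrophage markers, 1074 of 5188 were higher. With cells weighted equally, 1065 of 9808 were lower. The number of genes measured changed with the setting, so the counts alone are not comparable.

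Some ratios changed sign. Against aged control, Fabp5 was -0.53 in strict cells, -0.45 without macrophage-marker cells and -0.70 with both; Stxbp6 was 2.44 in strict cells and 1.95 with both; Plcb1 was 1.52 with both; Cstdc5 was 0.49 with 2 genes required. Against young CNV, the cytokine median was -0.23 without macrophage-marker cells and -0.085 with both. Mal was 2.24 in strict cells, 1.77 with 2 of 6 genes, 1.14 without macrophage-marker cells, 1.25 with both and 0.24 without the 3 deepest cells. List medians also differed in sign between strict and all picked cells. Against young CNV these were chemokine ligands (-1.48 and 0.81), NK partner genes (-0.56 and 0.23), NF-kB targets (-0.40 and 0.85), transcription factors (-0.32 and 0.11), phagocyte oxidase (-0.31 and 0.73), chemoattractant receptors (-0.27 and 0.88), cytokine receptors (-0.14 and 0.49), adhesion (-0.10 and 0.47), survival (-0.060 and 0.95), pattern and Fc receptors (-0.0043 and 0.76), granule proteins (0.11 and -0.23), cell cycle (0.26 and -0.28) and angiogenesis (0.35 and -0.14). Against aged control these were cytokines (-0.38 and 0.19), NF-kB targets (0.15 and -0.19) and survival (0.40 and -0.24). The remaining single genes are given against young CNV. With 2 of 6 genes Upk3bl was 0.32, Cstdc5 1.33, Asprv1 2.14 and Pglyrp1 2.58 against young CNV. In strict cells Asprv1 was 0.0074 and Pglyrp1 0.11 against young CNV, and without the 3 deepest cells 1.57 and 1.17. S100a10 against young CNV was 1.21 without macrophage-marker cells and 1.01 with both. The causes were not tested. Depth limits the young control, with 19018 UMIs in 4 cells.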
